A study of Mus musculus with 4 samples.

Results

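Among the CD8+ PD-1+ CD44+ T cells sorted from tumor-draining lymph nodes (TdLN) of melanoma-bearing mice, a small set of droplets carried the RNA of antigen-presenting cells. Members of this set were cell barcodes with at least 3 unique molecular identifiers (UMIs, each counting 1 captured RNA molecule) of the MHC class II genes H2-Aa and H2-Ab1 together and at least 2 of Cst3 (cystatin C). They also had no UMI of the B cell gene Cd79a or the γδ T cell gene Trdc. Of 43971 barcodes that passed the cell filters, 346 (0.787%) were members. Members were thus selected on measured UMIs of H2-Aa, H2-Ab1, Cst3, Cd79a and Trdc, and the levels of these genes are a description that was not tested.

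All mice were female C57BL/6 mice, obtained at 6 weeks of age. The study's methods describe tumors of B16F10GP on both flanks, while some of its experiments used a single tumor. Which design the sequenced mice had is not stated in the study. It took the TdLN from the side of the irradiated tumor throughout. B16F10GP is the B16F10 melanoma line transduced to carry the glycoprotein of a mouse virus, LCMV, as a model tumor antigen, and it was kept as a sorted pool of cells. Control mice were untreated, RT mice had the tumor of 1 flank irradiated, αPD-L1 mice received an antibody against PD-L1 by intraperitoneal injection, and RT + αPD-L1 mice received both. Treated mice were sampled 7 days after treatment, and the labels give neither the radiation dose nor the sampling day of Control. Each treatment was 1 droplet library that pooled 5 mice marked by hashtag antibodies, so treatment and library cannot be told apart, and mice were the replicates. The study also describes naive CD8+ cells sorted from untreated mice, and whether the Control library holds any of them is not given in the sources used here.

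Dendritic cells take up antigen in tissues, cut it into peptides, and show these to CD4+ T cells on MHC class II and to CD8+ T cells on MHC class I. Conventional dendritic cells of the cDC1 kind carry XCR1 and CLEC9A, depend on the factors IRF8 and BATF3, and excel at showing captured antigen to CD8+ T cells. In the mouse, cDC1 that live in lymph nodes also carry the CD8α chain without CD8β. Migratory dendritic cells switch on the chemokine receptor CCR7 and the actin-bundling protein fascin (Fscn1), travel from tissue to the node, and carry costimulators and PD-L1 (Cd274), the ligand that the antibody in this study blocks.

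Kept barcodes held between 84600548 and 97257340 UMIs per library, and medians of the other barcodes lay between 6421.5 and 7027 UMIs. Control gave 57 of the members, RT 76, αPD-L1 99 and the combination 114. Of barcode sequences that occurred in at least 2 libraries there were 994, of which 13 belonged to a member in 1 of them, and 0 were members in 2 libraries.

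Promoters of genes that recur throughout the results are shown first, and only where the motif searched for was found. Each is the 150 bases before the RefSeq start site on GRCm38.p6 (the mm10 build), on the gene's strand. In H2-Aa, a gene of the rule, and H2-Eb1, the β chain of the related I-E molecule, capitals mark CCAAT in either orientation, the letters of the Y box that MHC class II promoters are known for. H2-Aa lay at chr17:34287824-34287973 (minus strand) with a match 48 bases before the start, and H2-Eb1 at chr17:34305717-34305866 (plus strand) with 2 matches 35 and 59 bases before it.
H2-Aa: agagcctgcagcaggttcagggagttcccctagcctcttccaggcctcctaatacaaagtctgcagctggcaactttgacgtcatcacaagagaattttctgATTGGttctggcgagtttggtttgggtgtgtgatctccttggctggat
H2-Eb1: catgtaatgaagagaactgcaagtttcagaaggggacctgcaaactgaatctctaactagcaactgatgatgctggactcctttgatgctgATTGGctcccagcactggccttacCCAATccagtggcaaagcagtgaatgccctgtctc
In Bst2 (tetherin, which holds budding virus at the cell surface) and Isg15 (a ubiquitin-like protein of the antiviral response), capitals mark overlapping matches to GAAANNGAAA, the core of the interferon-stimulated response element. The Bst2 window was chr8:71537473-71537622 (minus strand) with 2 matches, and the Isg15 window was chr4:156200819-156200968 (minus strand) with 3.
Bst2: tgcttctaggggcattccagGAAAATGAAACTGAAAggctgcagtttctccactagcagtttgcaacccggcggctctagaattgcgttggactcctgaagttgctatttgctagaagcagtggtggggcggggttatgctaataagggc
Isg15: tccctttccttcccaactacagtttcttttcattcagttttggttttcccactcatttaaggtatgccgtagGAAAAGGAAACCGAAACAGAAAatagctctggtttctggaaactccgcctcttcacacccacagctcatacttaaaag
Over the whole RefSeq windows (250 bases before to 50 after the start, both strands), CCAAT was in 9 of 14 promoters of the MHC class II presentation list (12 of its 17 genes matched) and in 37.4% of all 32851 promoters. GAAANNGAAA was in 8 of 15 promoters of the 17 interferon-stimulated genes tested below (12 matched) and in 3.44% of all promoters. Irf7, which also recurs below, had 0 matches, as did Ifi47, Irf9 and Herc6.

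The set was not uniform: some members had no T cell receptor RNA and others had as much as the rest of the barcodes. The 6 genes Cd3e, Cd3d, Cd3g, Trac, Trbc1 and Trbc2, which make the T cell receptor and its CD3 complex, were summed in each barcode. Of the 346 members, 101 had 0 such UMIs, 49 had 1, 27 had 2 to 10, and 169 had over 10. The other barcodes had a median of 30 and 89.2% of them had over 10. The 150 members with fewer than 2 (T cell receptor-negative members) held 32 barcodes from Control, 25 from RT, 50 from αPD-L1 and 43 from the combination. The remaining 196 (T cell receptor-positive members) held 25, 51, 49 and 71 in the same order. As over 10 T cell receptor UMIs in 169 members go against the cell type name, the whole set is called by its rule, MHC-II+ Cst3+ barcodes.

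**Figure D1:**
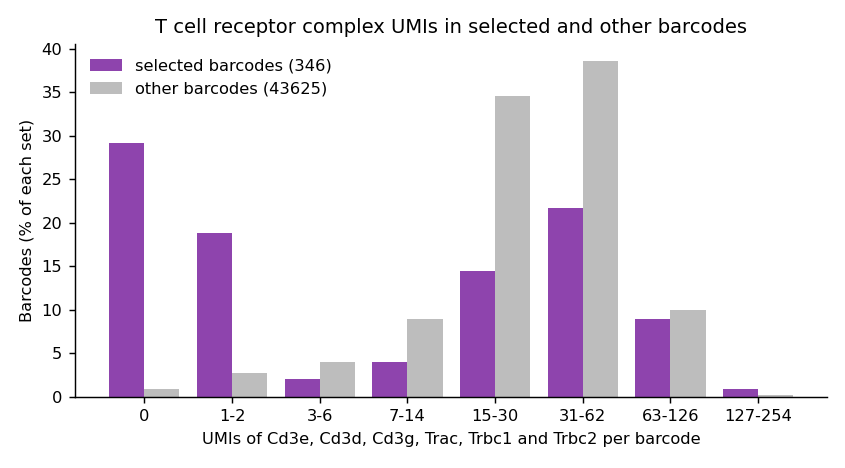
Bars give the share of barcodes (vertical axis, %) in each range of summed T cell receptor complex UMIs (horizontal axis) for the 346 members and the 43625 other barcodes. Members form a group at 0 UMIs, with 29.2% of them against 0.896% of the other barcodes, and a further group between 15 and 126 UMIs where the other barcodes lie.

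Receptor-positive members were also richer in RNA and in hashtags. Their median was 11342 UMIs, against 7394 in receptor-negative members and 6668 in the other barcodes. A droplet with cells of 2 mice carries several hashtags, and 52 of 196 receptor-positive members did (26.5%, 95% exact binomial interval 20.5 to 33.3%), compared with 5 of 150 receptor-negative members (3.33%, 1.09 to 7.61%) and 8.12% of the other barcodes (7.86 to 8.38%). The share among receptor-positive members lay between 20% and 31.0% in the 4 libraries, above the 7.39 to 8.73% of the other barcodes in each. Their MHC class II median was 8 UMIs, against 48 in the receptor-negative members. Intervals cover counting error only, and cells of the same mouse in 1 droplet leave no such trace.

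Near the threshold the T cell RNA dominated. Of the 93 members with 3 to 5 MHC class II UMIs, 21 were receptor-negative, and of the 76 with 2 or 3 Cst3 UMIs, 16 were. Just outside, 40 barcodes met every other term but had 2 MHC class II UMIs (6 receptor-negative), 47 had 1 Cst3 UMI (4 receptor-negative) and 60 had none (17 receptor-negative). Another 53 were kept out by Cd79a or Trdc, of which 23 were receptor-negative. Cst3 was not particular to the members, since 45.5% of the other barcodes had at least 1 Cst3 UMI, whereas 3.20% had an H2-Aa or H2-Ab1 UMI.

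Genes that lead the members over the other barcodes were those of antigen presentation and myeloid cells. These are descriptions of pooled CPM (a gene's UMIs scaled to the UMI total of the set, with 5 added in ratios), with no test, because the rule chose on the same cells. H2-Eb1 stood at 3114 CPM in members and 8.69 in the other barcodes, a 228-fold ratio, and Cd74, the invariant chain that escorts MHC class II, at 11023 against 110.3. Fscn1 followed with 1186 against 4.44 CPM. Apol7c, an apolipoprotein L family gene of antigen-presenting cells, stood at 428.8 against 2.08. The chemokines Cxcl9 (350.2 against 1.44) and Cxcl16 (255.6 against 1.13) and the myeloid master regulator Spi1 (PU.1, 235.4 against 1.31) were also among the 25 leading genes, together with the cathepsin gene Ctsh and the adaptor genes Tyrobp and Fcer1g. In receptor-negative members the same ratios were larger: H2-Eb1 461-fold, Fscn1 245-fold and Cd74 187-fold. Batf3 was a leading gene there, at 327.2 against 0.829 CPM and in 113 of 150 barcodes. The dendritic cell genes Flt3 (98 of 150) and Zbtb46 (76 of 150) were found in 0.165% and 0.568% of the other barcodes. Lyz2, the lysozyme of macrophages and a marker given for this population, was in 41 of 150. Itgax (CD11c) was in 44 of 150 and Ciita, the master regulator of MHC class II genes, in 46 of 150.

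The sort had asked for CD8, PD-1 and CD44 protein, and the RNA of these was uneven in receptor-negative members (median 7394 UMIs, against 6668 in the other barcodes). Cd8a, the CD8α chain, was in 68 of 150 (45.3%) at 312.1 CPM, compared with 89.1% and 698.5 CPM in the other barcodes. Cd8b1, the CD8β chain, was in 26 of 150 (17.3%) at 22.7 CPM, compared with 93.8% and 1240 CPM. Pdcd1, which encodes PD-1 (chr1:94038305-94052553), was in 0 of 150, which allows up to 2% of barcodes with a UMI and does not limit how many express it, whereas 14.1% of the other barcodes had a UMI. Cd44 was in 78 of 150 (52%) at 155.7 CPM, above the 32.8% and 64.3 CPM of the other barcodes. Receptor-positive members lay closer to the other barcodes, with Cd8b1 in 85.2% and Pdcd1 in 19.4%.

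Markers of other cells that a node could give ranged from 0 to above the level of the other barcodes in receptor-negative members. All 5 melanoma markers and all 5 γδ T cell markers were at 0, as were 6 of 7 neutrophil, 4 of 6 NK cell, 4 of 6 stromal and 5 of 10 B cell markers, and the zeros of Trdc and Cd79a were set by the rule. B cell markers summed to 89.9 to 151.4 CPM in the 4 libraries (197.4 to 235.7 in the other barcodes). Macrophage markers summed to 139.5 to 437.0 (19.2 to 21.0 in the other barcodes, 1 of 12 at 0). Plasmacytoid dendritic cell markers summed to 404.7 to 1602 (291 to 920.5 in the other barcodes, 0 of 12 at 0). That list includes Irf7 and Bst2, which are also interferon-stimulated genes, so its sum does not show that these cells were present. Siglech of the same list had 11 UMIs in members of αPD-L1 mouse 4 and 7 in RT + αPD-L1 mouse 5. It had 0 in the other mice compared below. The defining genes S100a8 and S100a9 of neutrophils and Pmel and Mlana of melanoma were among those at 0. Of the monocyte markers 9 of 10 had a UMI. Their summed level was 4494 CPM in RT + αPD-L1, compared with 1122 in the αPD-L1 library, 451.2 in RT and 623.1 in Control. The other barcodes had 1678, 644.7, 541.9 and 518.7 CPM in the same order, which in RT was above the receptor-negative members. Ly6c2 is on this list, and in the other barcodes it was also higher in RT + αPD-L1 than in Control, by 1.42 on the log2 scale. T cell markers summed to between 339.5 and 536.2 CPM in the receptor-negative members of the 4 libraries, against 3651 to 5616 in all members.

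Clustering of the 346 members gave 8 clusters, named from the marker lists where 3 or more genes of 1 list stood among the 50 leading genes and 1 among the 10 leading genes. Since the clusters were drawn on the same genes, no gene was tested between them.

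Cluster 4 (40 barcodes, 31 receptor-negative) was cDC1-like. It was led by Cadm1, Xcr1 and Clec9a, and held 10 cDC1 markers among its 50 leading genes. Xcr1 (the receptor for the T cell chemokine XCL1, chr9:123852315-123862029) was in 35 of 40 at 409.3 CPM and in none of cluster 3. Clec9a, a receptor for actin of dead cells (chr6:129408862-129424763), was in 34 of 40 and Irf8 in 38 of 40 at 1722 CPM. MHC class II had a median of 285.5 UMIs per barcode. Cd8a was in 37 of 40 at 580.7 CPM, while Cd8b1 was in 11 of 40 at 66.5 CPM. Pdcd1 was in 0 of 40, which allows up to 7.5% of barcodes with a UMI. Ccr7 was in 4 of 40 and Cd274 in 3 of 40 (10.1 CPM), while Cxcl9, which draws CXCR3+ T cells, was in 29 of 40 (816.6 CPM). Il12b, a subunit of the cytokine IL-12, was in 7 of 40. Cluster 8 (14 barcodes, 10 receptor-negative) shared Xcr1 (10 of 14) and Clec9a (12 of 14) but was led by genes of cell division. Top2a was in 13 of 14. It held no cDC1 marker among its 10 leading genes and is therefore left unnamed.

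Cluster 2 (51 barcodes, 40 receptor-negative) was migratory dendritic cell-like, led by Zmynd15 and Serpinb1a, with 9 markers of that list among its 50 leading genes. Fscn1 was in 50 of 51 at 6100 CPM, and Ccr7, which guides cells to the node, was in 48 of 51 at 2822 CPM, against 305.1 CPM in the other barcodes, of which 70.1% had it. The chemokine Ccl5 reached 28422 CPM and was in 51 of 51, although 28.9% of the other barcodes also had it. Il15, which sustains memory CD8+ T cells, was in 46 of 51 (422.5 CPM), the costimulator Cd40 in 38 of 51 (664.2 CPM) and Il12b in 17 of 51. Cd274 (PD-L1, chr19:29367455-29388095) stood at 151.4 CPM in 14 of 51. MHC class II was lower than in cluster 4, at a median of 14 UMIs.

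Cluster 3 (50 barcodes, 42 receptor-negative) met no list and is left unnamed. It shared Fscn1 (50 of 50, 3678 CPM), Ccr7 (44 of 50) and Il4i1 (44 of 50) with cluster 2, and was led by 2610528A11Rik (24 of 50, 601.7 CPM), Ceacam15, Pla2g4f and Fabp5, a fatty acid-binding protein (49 of 50, 3358 CPM). Aire, the autoimmune regulator that lets thymic cells show tissue antigens (chr10:78030022-78043610), was its leading gene number 16. Its level was 70.4 CPM and it was in 11 of 50 barcodes, compared with 0.0229% of the other barcodes. Cd274 was in 25 of 50 at 128 CPM. Cd44 was highest here, at 288.1 CPM.

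Cluster 5 (38 barcodes, 21 receptor-negative) held Csf1r (29 of 38), Sirpa (29 of 38), Cd209a and Clec10a of the cDC2 list, and Fcgr1 (16 of 38), F13a1 and Lyz2 (31 of 38, 5327 CPM) of the monocyte list. The cDC2 list met the naming rule, with 2 markers among the 10 leading genes and 5 among the 50. The monocyte list did not, with 0 among the 10 and 3 among the 50. Csf1r also stands on the macrophage list, and with markers of both lists the cDC2 name was withheld despite the rule. It carried interferon-induced RNA: Isg15 at 1758 CPM (29 of 38), the chemokine Cxcl10 at 2035 CPM (22 of 38), Cxcl9 at 1480 CPM (27 of 38) and Irf7, the amplifier of type I interferon, at 1587 CPM (34 of 38). Cd274 was highest here, at 196.9 CPM in 23 of 38, against 27.4 CPM and 16.6% in the other barcodes. These levels rest largely on 1 mouse, since 27 of the 38 barcodes came from RT + αPD-L1 and 21 from its mouse 3. Interferon-stimulated genes in cluster 5 summed to 33455 CPM in RT + αPD-L1 and to 5983 to 7243 in the other libraries. Cxcl10 over all members stood at 1597 CPM in that mouse and at most 61.2 in the other mice compared below.

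The remaining clusters were mostly receptor-positive. Cluster 1 (93 barcodes, 0 receptor-negative) was led by the T cell genes Trbv12-2, Trbv4, Itm2a and Xcl1, with an MHC class II median of 5 UMIs. Cluster 6 (31 barcodes, 0 receptor-negative) was cycling-like with Ccnb2 and Birc5, and its T cell receptor median was 62 UMIs. Cluster 7 (29 barcodes, 23 receptor-positive) reached the plasmacytoid dendritic cell count through Ly6d, Cox6a2 and Siglech. Each of these was in 3 of 29 barcodes, whereas 28 of 29 had Fscn1, so it is left unnamed.

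**Figure D2:**
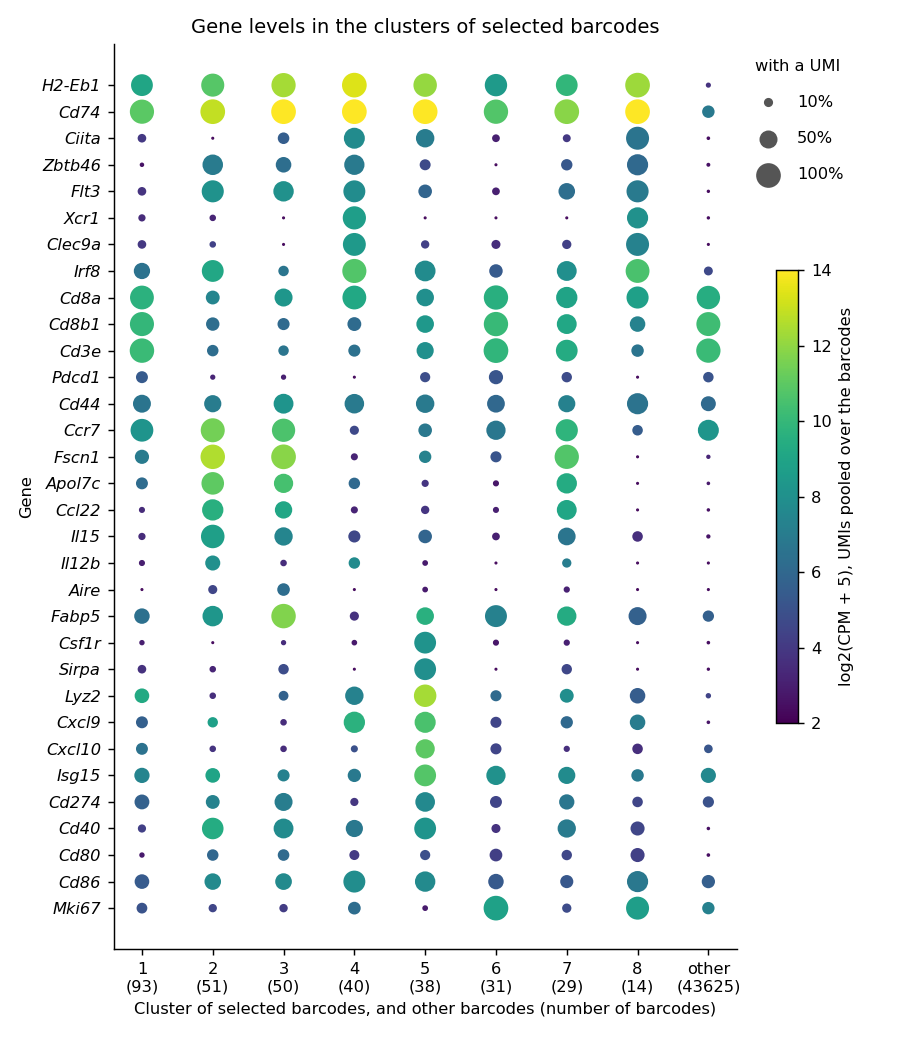
Dot size gives the share of barcodes with a UMI and color the pooled level (log2(CPM + 5)) of each gene (vertical axis) in the 8 clusters and the other barcodes (horizontal axis, number of barcodes in brackets). Xcr1 and Clec9a mark clusters 4 and 8, Fscn1, Apol7c and Ccl22 clusters 2, 3 and 7, and Csf1r, Sirpa and Cxcl10 cluster 5, while Ccr7 and Cd8a are also frequent in the other barcodes.

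The clusters took unequal shares of the 4 libraries. Cluster 1 made up 39.5% of RT members and 19.3 to 26.3% elsewhere. Cluster 5 made up 27 of 114 members in RT + αPD-L1 (23.7%, 16.2 to 32.6%), compared with 4 of 57 in Control (7.02%), 4 of 76 in RT (5.26%) and 3 of 99 in αPD-L1 (3.03%). Of the 27, 21 came from mouse 3, which also gave 53 of the 87 RT + αPD-L1 members assigned to a mouse. The migratory-like cluster 2 was 17 of 57 in Control (29.8%, 18.4 to 43.4%), whereas it was 15.8% of RT members, 9.09% of αPD-L1 members and 11.4% of those of the combination. The cDC1-like cluster 4 was 4 of 57 in Control (7.02%) and 19 of 99 in αPD-L1 (19.2%, 12.0 to 28.3%), with members from 5 αPD-L1 mice. These shares are over 1 library each and were not tested. Interferon-stimulated and other genes that define cluster 5 also differ between libraries, so its size is no independent measure.

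**Figure D3:**
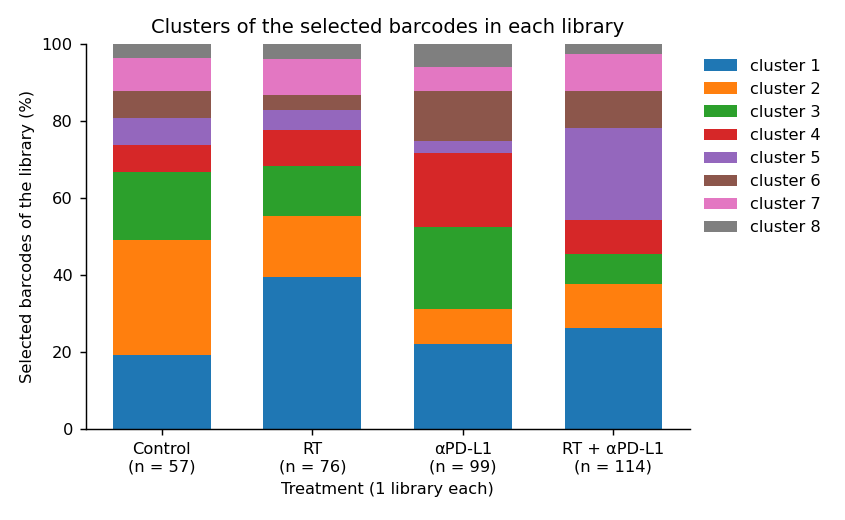
Stacked bars give the share of each library's members (vertical axis, %) that fell into the 8 clusters, for the 4 treatments (horizontal axis, 1 library each). Cluster 5 is 23.7% of RT + αPD-L1 and 3.03 to 7.02% elsewhere, and cluster 2 is 29.8% of Control and 9.09 to 15.8% elsewhere.

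Whether treatment changed how many such cells passed the sort was asked over mice. Per library, members were 1.02% (0.846 to 1.23%) of kept barcodes in RT + αPD-L1. They were 0.806% (0.655 to 0.980%) with αPD-L1 alone, 0.748% (0.590 to 0.936%) with RT alone and 0.548% (0.415 to 0.710%) in Control. The order did not hold up against the spread between mice. Barcodes with exactly 1 hashtag gave 274 members to 20 mice, and the other 72 were left out (57 with several hashtags, 15 with none). Control mice had 0.509, 0.463, 0.331, 1.06 and 0.475% members. RT mice had 0.695, 0.617, 0.899, 0 and 0.546%, the 0 being mouse 4 with 149 barcodes. The αPD-L1 mice had 0.476, 0.748, 0.757, 0.809 and 0.608%. RT + αPD-L1 mice had 0.625, 0.510, 1.10, 0.636 and 1.04%. All 4 groups overlapped.

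The mean was 0.783% ± 0.268 (SD, n = 5 mice) in RT + αPD-L1 and 0.567% ± 0.283 in Control, a difference of 0.215 percentage points (exact two-sided permutation p = 0.190, adjusted p = 0.595 over 5 comparisons). The αPD-L1 mean of 0.679% ± 0.136 was 0.112 points above Control (exact permutation p = 0.476, adjusted 0.595). The RT mean of 0.551% ± 0.335 differed from Control by −0.0158 points (exact permutation p = 0.944), and its sign turned when RT mouse 4 or Control mouse 4 was left out. RT + αPD-L1 was 0.231 points above RT (exact permutation p = 0.254) and 0.103 above αPD-L1 (exact permutation p = 0.437), each with an adjusted p of 0.595. The smallest p that 5 against 5 mice allow is 0.00794. The sort sets these shares, and the gates of the 4 libraries were not compared. Receptor-negative members alone were 0.407% ± 0.170 in RT + αPD-L1, against 0.382% ± 0.0637 with αPD-L1, 0.225% ± 0.187 with RT and 0.283% ± 0.135 in Control, with adjusted p-values of the exact permutation tests between 0.397 and 0.794.

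**Figure D4:**
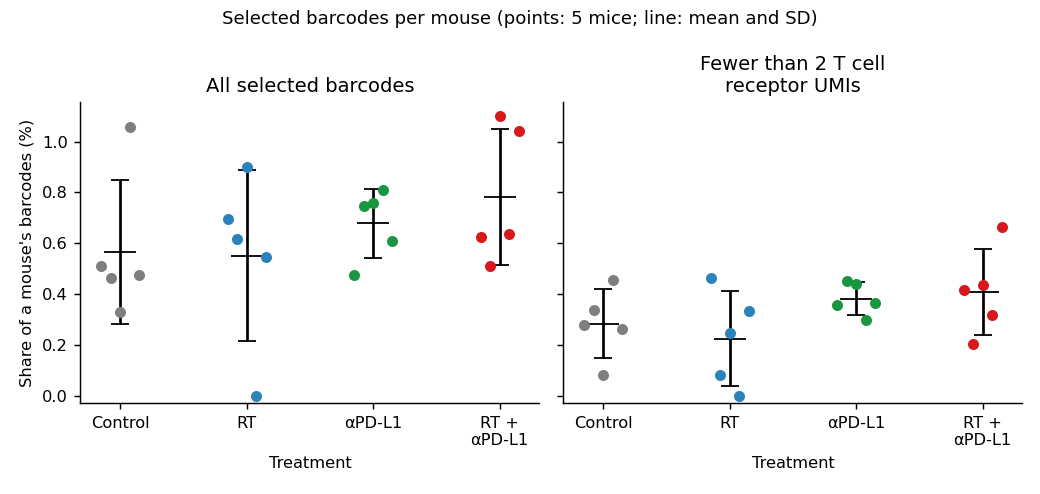
Points give the share of each mouse's barcodes (vertical axis, %) that were members, for all members (left) and receptor-negative members (right), by treatment (horizontal axis), with the mean and SD of 5 mice. The groups overlap in both panels, and RT mouse 4 is at 0.

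Gene levels in the members were compared between treatments on UMIs summed per mouse, in the 16 mice with at least 5 members (4 per group). Left out were Control mouse 3, RT mouse 4, αPD-L1 mouse 1 and RT + αPD-L1 mouse 1. These sums mix all clusters, so a change of makeup and a change within cells cannot be told apart. No gene passed: edgeR's quasi-likelihood test with Benjamini-Hochberg adjustment called 0 of 2725 genes (0%) in each of the 5 comparisons. At an unadjusted p under 0.05 there were 146 genes for RT + αPD-L1 against Control, 121 for RT against Control and 153 for αPD-L1 against Control. Set against RT the combination gave 119 such genes, and set against αPD-L1 it gave 93. DESeq2 called 6 genes, all higher, in RT + αPD-L1 against Control (Ly6a, Ly6c2, Ifi47, Lgals3bp, Bst2 and Irf7) and 1 against RT, and 0 in the other 3 comparisons. DESeq2 was run on the same filtered genes. Without a filter on low counts edgeR called 22 to 147 genes per comparison, so the zero depended on the settings, and the cause was not tested.

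No gene passed between RT + αPD-L1 and Control, and the genes with the smallest p-values, several of them interferon-inducible, are given here by level. Ly6a (Sca-1, chr15:74994877-74998031), an interferon-inducible surface protein, stood at 43.8, 0, 0 and 27.5 CPM in Control mice and 0, 32.8, 38.6 and 31.2 in RT mice. It stood at 59.2, 122.6, 143.9 and 38.6 in αPD-L1 mice and 655.2, 1358, 39.6 and 339.5 in RT + αPD-L1 mice. Of the RT + αPD-L1 mice 3 lay far above all Control mice and mouse 4 lay just below the highest. The fitted difference was 4.85 ± 0.87 on the log2 scale (SE, edgeR adjusted p = 0.0813). Bst2 (chr8:71534255-71537456) stood at 61.3, 252.3, 240.1 and 137.5 CPM in Control and 420.0, 893.1, 396.2 and 410.3 in RT + αPD-L1. These groups did not overlap, and the difference was 1.69 ± 0.40 (edgeR adjusted p = 0.271). Such a separation, with all 4 RT + αPD-L1 mice higher, was seen in 2 of 17 tested interferon-stimulated genes and in 40 of all 2725 genes (1.47%).

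Ifi47, an interferon-γ-induced GTPase, stood at 26.3, 76.8, 68.6 and 55.0 CPM in Control and 218.4, 848.9, 118.9 and 169.8 in RT + αPD-L1 (2.74 ± 0.61, edgeR adjusted p = 0.230). The groups were apart here too. Ly6c2, a monocyte and memory T cell surface gene, went from 17.5, 54.8, 51.5 and 36.7 to 369.6, 1830, 237.7 and 282.9 CPM (4.18 ± 0.88, edgeR adjusted p = 0.211). Irf7 (chr7:141262706-141266481) stood at 17.2 to 55.0 CPM in Control and at 193.2, 1726, 39.6 and 99.0 in RT + αPD-L1 (3.89 ± 1.03, edgeR adjusted p = 0.443), where mouse 3 stood above the others. Isg15 (chr4:156199424-156200818) was at 18.3 to 137.2 CPM in Control and at 478.8, 2235, 26.4 and 42.4 in RT + αPD-L1 (3.47 ± 1.14, edgeR adjusted p = 0.747), so that 2 of the 4 mice lay within the Control range. Lgals9, the galectin-9 ligand of TIM-3, differed by 1.95 ± 0.46 (edgeR adjusted p = 0.266) and Lgals3bp, a galectin-binding protein, by 2.45 ± 0.53 (0.211). Ly6c2, Lgals9 and Lgals3bp are not on the interferon-stimulated list used here. Reads of the near-identical Ly6 genes are assigned to each copy with uncertainty.

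These sizes depended on mouse 3 and on how hashtags were read. Without RT + αPD-L1 mouse 3, Ly6a differed by 4.03 (edgeR adjusted p = 0.284), Ly6c2 by 2.95, Ifi47 by 1.65, Irf7 by 1.64, Isg15 by 1.62 and Bst2 by 1.302 (0.999 for each of these 5). With HTODemux in place of the thresholds used here, Ly6a differed by 2.92 (0.690), Ly6c2 by 2.56 (0.701), Ifi47 by 2.31 (0.678) and Bst2 by 0.82 (0.860).

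**Figure D5:**
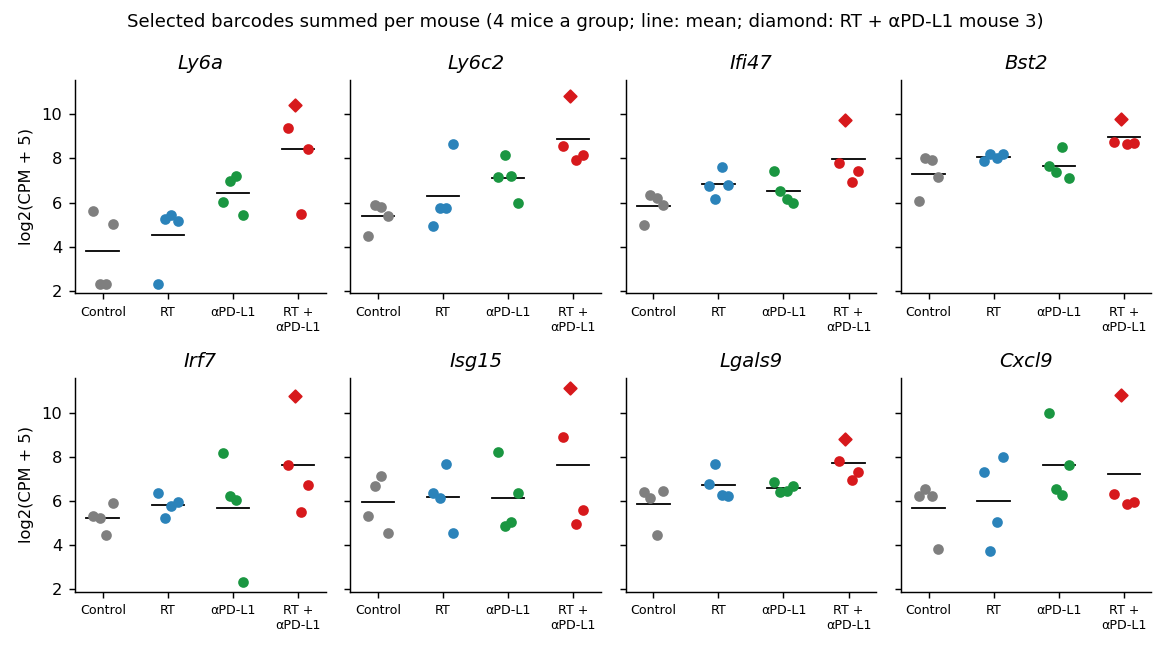
Points give the level of 8 genes (vertical axis, log2(CPM + 5)) in members summed per mouse, with 4 mice a group, the group mean as a line and RT + αPD-L1 mouse 3 as a diamond, by treatment (horizontal axis). Bst2, Ifi47, Lgals9 and Ly6c2 do not overlap between Control and RT + αPD-L1, while Isg15, Irf7 and Cxcl9 are high mainly in mouse 3.

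Of the list of 45 interferon-stimulated genes 17 passed the filter on low counts. A gene high in 1 group can pass through that group alone, so the values of these 17 are a description and not those of the whole list. In RT + αPD-L1 against Control their median was 1.69, compared with 0.01 for all 2725 genes, and 0 were called (edgeR adjusted p). At an unadjusted p under 0.05 there were 10, all higher, where 3.49% of all genes were higher and 1.87% lower. The 10 of 22 interferon-γ-induced genes that passed the filter had a median of 1.11. Without RT + αPD-L1 mouse 3 the median of the 17 was 0.63, with 3 at an unadjusted p under 0.05. Outside cluster 5 the median was 1.52 over 14 genes, and in receptor-negative members it was 2.32 over 15. The median of the 17 was 1.02 where the combination was set against RT, and 1.47 where it was set against αPD-L1, and these comparisons share their treated mice. RT and αPD-L1 against Control gave medians of 0.48 and 0.68, with the same Control mice.

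Summed over the 43 interferon genes found in the files, members outside cluster 5 reached 8385 CPM in RT + αPD-L1, compared with 4241 in αPD-L1, 3549 in RT and 2691 in Control. Cluster 5 stood at 33455 CPM in RT + αPD-L1 (27 barcodes) and 5983 to 7243 in the 3 to 4 barcodes of each other library. The other barcodes, mostly with T cell receptor RNA, reached 11558 CPM in the combination and 4289 to 4649 elsewhere. By mouse they stood at 4414.5, 10946, 14819, 7013 and 7047 CPM in RT + αPD-L1 mice 1 to 5. The Control mice had 3306 to 5120, so mouse 1 lay within their range. Within RT + αPD-L1 the members of mice 1 to 5 stood at 4651, 6743, 22064, 2504 and 3829 CPM, against 2260 to 4557 in the Control mice. Mouse 3 was above the rest, mice 4 and 5 lay within the Control range, and mouse 1 lay just above it.

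Whether the members responded differently from the other barcodes of the same mice was tested as an interaction, with fitted values of each kind taken from separate fits. Of 12350 genes 0 passed (0%, edgeR, smallest adjusted p = 0.321), with 534 at an unadjusted p under 0.05. Of the alternative settings 12 also called 0, DESeq2 among them, and 5 called genes. These 5 were no filter on low counts, a stricter rule of membership, receptor-negative members, HTODemux, and Control mouse 5 left out. Of the 17 interferon-stimulated genes, 16 were tested in the other barcodes of these mice alone, and Ifi205 was not. All 16 were called higher, with a median of 1.44, where 6.36% of 11467 genes were called higher (edgeR). The difference, members minus other barcodes, had a median of 0.20 and was above 0 for 10 of 17. Ly6c2 had one of the 5 smallest p-values (4.18 in members against 1.42 in the other barcodes, difference 2.49 ± 0.58, edgeR adjusted p = 0.321), as did Mpeg1, a pore-forming protein of phagocytes (0.08 against 3.38, difference −2.91 ± 0.65, edgeR adjusted p = 0.321).

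No antigen presentation gene passed. Of 17 MHC class II presentation genes 11 were tested, with a median of −0.09 in RT + αPD-L1 against Control (5 above 0) and 0.02 in αPD-L1 (7 above 0, 3 higher at an unadjusted p under 0.05). Among all 2725 genes, 67 were higher and 86 lower at that level in αPD-L1 against Control. Cd74 stood at 12854 to 15761 CPM in Control and 9153 to 18014 in RT + αPD-L1 (−0.13 ± 0.27, edgeR adjusted p = 1). The largest value in that list was H2-DMb2, a chain of the peptide editor H2-M, with 34.3 to 70.0 CPM in Control and 92.4 to 438.5 in RT + αPD-L1 (1.49 ± 0.59, edgeR adjusted p = 0.809). In αPD-L1 it was at 266.6, 83.4, 337.7 and 231.6 (1.96 ± 0.56, edgeR adjusted p = 0.827). Of 18 tested MHC class I presentation genes 5 were above 0 in RT + αPD-L1 (median −0.07) and 4 in αPD-L1 (median −0.45, 1 lower at an unadjusted p under 0.05).

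Migratory dendritic cell genes had fitted values below 0 in αPD-L1 members, without passing, and no one direction in RT + αPD-L1. Of 25 tested, 22 were below 0 in αPD-L1 against Control (median −1.17), with 8 lower at an unadjusted p under 0.05, compared with 86 lower among all 2725 genes. In receptor-negative members 21 of 25 were below 0 (median −0.52) and 0 were at that unadjusted level. In RT + αPD-L1 22 were below 0 (median −0.62), but in receptor-negative members 8 were (median 0.19), so that the direction turned. RT had 15 below 0 (median −0.14). T cell RNA moved beside these values: of 14 tested T cell markers 10 were above 0 in αPD-L1, 12 in the combination and 14 in RT, with medians of 0.39, 0.41 and 0.49. Of 13 pan dendritic cell genes 6, 12 and 10 were below 0 in the same order (medians 0.00, −0.26 and −0.24). In receptor-negative members these 13 genes summed to 37700, 31174 and 33916 CPM in that order, all above the 28108 of Control (pooled per library, not tested). The part of T cell RNA and of pan dendritic cell genes in the migratory values was not tested.

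Fscn1 stood at 1759, 4497, 4700 and 1045 CPM in Control and 1585, 632.7, 398.6 and 521.0 in αPD-L1, which overlapped in 1 mouse (−1.90 ± 0.77, edgeR adjusted p = 0.827). In RT + αPD-L1 it was at 310.8, 1140, 1981 and 2150 (−1.11 ± 0.76, adjusted p = 1). Ccr7 was at 394.2 to 1777 CPM in Control and 57.9 to 903.5 in αPD-L1 (−1.47 ± 0.66, edgeR adjusted p = 0.827). Il15 was at 64.2 to 308.7 CPM in Control and 19.3 to 70.4 in αPD-L1 (−1.96 ± 0.65, edgeR adjusted p = 0.827), and Traf1, a signaling adaptor of TNF receptors, at 330.1 to 658.1 and 166.1 to 370.3 (−1.27 ± 0.35, adjusted p = 0.827). The smaller share of cluster 2 in αPD-L1 members stands beside these values and its part in them was not tested. Il12b went against its list in RT + αPD-L1 (3.07 ± 1.54, edgeR adjusted p = 0.957), from 0 to 35.0 CPM in Control to 0, 97.7, 567.9 and 56.6. Ccl22, which draws CCR4+ T cells, was at 223.0 to 651.0 CPM in Control and 22.1 to 159.2 in αPD-L1 (−2.48 ± 0.89, edgeR adjusted p = 0.827). Of 13 NF-κB genes 12 were below 0 in RT + αPD-L1 (median −0.36), 11 in αPD-L1 (median −0.69) and 11 in RT (median −0.32). In receptor-negative members the NF-κB list summed to 4289, 3017 and 4400 CPM in that order, against 4457 in Control (pooled per library, not tested).

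No cDC1 gene passed either. Of 9 tested of 14, 8 were above 0 in αPD-L1 against Control (median 0.78). In RT 8 were below 0 (median −0.43), and in RT + αPD-L1 6 were (median −0.46). Clec9a was at 61.3, 76.8, 120.1 and 110.0 CPM in Control, 174.0, 132.4, 66.4 and 347.4 in αPD-L1 (0.84 ± 0.68, edgeR adjusted p = 0.878) and 117.6, 30.2, 52.8 and 0 in RT + αPD-L1 (−0.84 ± 0.78, adjusted p = 1). The groups overlapped, and with HTODemux the RT + αPD-L1 value of Clec9a turned to 0.11. Xcr1 had 68.6 to 110.0 CPM in Control, 77.5 to 231.6 in αPD-L1 and 0 to 184.8 in RT + αPD-L1. Of 10 monocyte genes 4 passed the filter, with a median of 2.42 in RT + αPD-L1. Lyz2 among them was at 2.01, and at −0.24 without RT + αPD-L1 mouse 3.

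Ligands and chemokines that reach PD-1 and CXCR3 on T cells did not pass either. Cd274 stood at 17.5, 98.7, 102.9 and 73.3 CPM in Control and 25.9, 57.4, 154.6 and 12.5 in RT. The αPD-L1 mice had 44.4, 29.4, 60.9 and 0 CPM, and the combination 16.8, 279.1, 52.8 and 28.3 (0.75 ± 0.79 against Control, edgeR adjusted p = 1). All groups overlapped, with mouse 3 highest, and without that mouse the value turned to −1.14 (edgeR adjusted p = 0.999). Pdcd1lg2 (PD-L2) had too few UMIs to be tested, at 74.0 CPM in RT + αPD-L1 mouse 3, 54.0 in mouse 4 of that group and at most 45.2 in the other groups. Cxcl9 stood at 9.2 to 87.7 CPM in Control, and was high in αPD-L1 mouse 2 (1018) and RT + αPD-L1 mouse 3 (1763), with 52.8 to 193.0 in the other mice of these groups (3.19 ± 1.26 for RT + αPD-L1 against Control, edgeR adjusted p = 0.809). Cxcl10, also untested, stood at 1597 CPM in RT + αPD-L1 mouse 3 and at most 61.2 elsewhere, and the antiviral genes Ifit3 and Rsad2 stood at 447.7 and 199.8 there and at most 64.3 and 27.5 elsewhere. The costimulator Cd86 stood at 17.2 to 166.3 CPM in Control and reached 304.7 in RT + αPD-L1 mouse 3 (0.55 ± 0.64, edgeR adjusted p = 1, and −0.50 without that mouse). Cd80 was too sparse to test, with at most 46.2 CPM in any mouse, as were Ccl17, Irf4 and Cd207. Cd40 was at 2225 CPM in RT mouse 1 and at 41.0 to 403.0 in the other RT mice (2.27 ± 1.02 against Control, edgeR adjusted p = 0.983). The smallest p-values of the other comparisons are given as values only. Against Control, RT had Grcc10 (0.86), Ctla2a (4.33), Usp34 (1.18), Arhgap9 (1.16) and Cirbp (−1.11) on the log2 scale, all at an edgeR adjusted p of 0.983. The αPD-L1 members had, beside Traf1 and H2-DMb2, Gramd1b (−1.55), Asprv1 (−3.41) and U2af2 (0.86), at 0.827. The combination set against RT had Ly6a (4.30, edgeR adjusted p = 0.119), Irf7 (3.45), Naa20, Immt and Ttc3, and set against αPD-L1 it had Ly6a (2.68), Gimap5, Lgals9, Ifi47 and Gbp5, at an adjusted p of 0.999 or above for all but Ly6a against RT.

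Across the 16 mice the genes whose levels were most like Cd274 were Chmp1a (Spearman's rho 0.81), Nub1 (0.76), Cyfip1 (0.76), Ly86 (0.75) and Arf1 (0.74), given as a description over mice that differ in depth.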

How the data were processed

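For each barcode, the authors deposited raw UMI counts of 32285 genes and 5 hashtags per library, aligned to mm10. The file headers give Cell Ranger 6.1.2, while the study's methods name another version. Depth is the UMI total, given in the report. Deposited barcodes numbered 47820. The cell filters (500 to 5000 genes, no more than 40000 UMIs, mitochondrial share below 10%) left 43971. No doublet caller was run. A hashtag was positive above the emptiest 0.1-wide bin of log10 counts between both modes (39182 barcodes with exactly 1). This departs from the study's HTODemux, which was an alternative (Seurat 5.3.0). The members and the gene lists were chosen with earlier results of these data known.

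Members were clustered with scanpy 1.11.5 and leidenalg 0.10.2 (10000 counts per barcode, log1p, 1500 variable genes clipped at 10, 15 components, 15 neighbors, resolution 0.6). A name needed 3 list markers in the 50 leading genes and 1 in the 10 leading genes. Genes led by ratio of CPM with 5 added, in at least 10% of barcodes. Shares of a mouse's barcodes were compared by exact two-sided permutation tests (252 splits, scipy 1.17.1). UMIs summed per mouse were tested with edgeR 4.0.16 in R 4.3.3 (TMM, filterByExpr, glmQLFTest, Benjamini-Hochberg, called at an adjusted p under 0.05), in 1 fit of 4 groups with a common biological coefficient of variation of 0.325. The 5 genes of the membership rule were left out of these tests. DESeq2 1.42.0 was an alternative. The interaction fit held members and other barcodes of each mouse with the mouse as a block. P-values measure the spread between mice of single libraries. Named genes were the 5 smallest p-values where under 5 genes were called, the 4 largest changes of a list and a fixed list of 43 genes (31 tested). Counts were simulated for RT + αPD-L1 against Control on 2725 genes, with changes placed only in genes of at least 200 CPM over all mice. Of these, 69 of 200 genes changed by 1 on the log2 scale and 179 of 200 changed by 2 were recovered, with 2 and 8 false calls. Recovery of genes at lower levels was not simulated.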

Additional observations from a re-analysis of the deposited data

Results flagged for a closer look

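Values that stood apart from the other mice of their group by Dixon's test, at a gap over range above the 95% critical value for 4 or 5 mice, numbered 13 of 148 groups tested (8.78%). Chance gives about 1 in 20. Of the 13, 6 belonged to RT + αPD-L1 mouse 3: Ly6c2 at 1830 CPM (others 237.7 to 369.6), Irf7 at 1726 (39.6 to 193.2), Cxcl9 at 1763 (52.8 to 75.6), Bst2 at 893.1 (396.2 to 420.0), Ifi47 at 848.9 (118.9 to 218.4) and Cd274 at 279.1 (16.8 to 52.8). This mouse gave 53 members, 21 of them in cluster 5, against 3 to 11 members in the other mice of the group. RT mouse 1, with 6 members, stood apart for Apol7c at 4760 CPM (others 237.6 to 705.8) and Cd40 at 2225 (41.0 to 403.0). αPD-L1 mouse 2 did so for Cxcl9 at 1018 CPM (72.0 to 193.0) and Il12b at 381.4 (0 to 14.7). RT mouse 5 had Ly6c2 at 393.5 CPM (25.9 to 49.7), and Control mouse 5 was low in Ccl5 at 1302 CPM (11682 to 12572). Members were 1.06% of the barcodes of Control mouse 4, 7 barcodes of 661, compared with 0.331 to 0.509% in the other Control mice.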

How the results depend on the processing

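Counts of called genes depended most on the filter on low counts. Without it, edgeR called 147 genes in RT + αPD-L1 against Control (133 higher), 22 in RT against Control, 62 in αPD-L1 against Control, 105 for the combination set against RT, 110 set against αPD-L1, and 24 in the interaction with the other barcodes. DESeq2 called 6 and 1 genes where the combination was set against Control and RT. The interaction gave 15 genes under a stricter rule of membership, 6 in receptor-negative members and 17 with HTODemux. The cause of these differences was not tested. Leaving out each mouse in turn gave 0 to 1 called genes for the combination against Control and against RT, where the 1 was Ly6a without RT + αPD-L1 mouse 4, 0 to 2 in the interaction (2 without Control mouse 5), and 0 to 0 in the other comparisons. Upper-quartile factors, library totals, a minimum of 10 members per mouse and, chosen after seeing the data, members outside cluster 5 left every comparison at 0 called genes.

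The difference in share between RT and Control turned from −0.0158 to 0.00147 points under the stricter rule and to 0.224 with HTODemux, and was 0.170 on the log2 scale. Without Control mouse 4 it was 0.107 and without RT mouse 4 it was 0.122, within a range of −0.103 to 0.122 over single mice left out. Over the same omissions the combination differed from Control by 0.136 to 0.338 points, from RT by 0.0934 to 0.318 and from αPD-L1 by 0.0239 to 0.171, and αPD-L1 from Control by 0.0530 to 0.235. No share comparison passed in any setting, with a smallest adjusted p of 0.0794 (exact permutation). No paired analysis was possible because the labels give no replicate numbers that tie a mouse of 1 library to a mouse of another. Sums per mouse ranged from 48501 to 540568 UMIs.

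Named genes whose RT + αPD-L1 against Control value changed sign, none of them called, follow on the log2 scale. In receptor-negative members these were Apol7c 1.23, Ccr7 1.0002, Il4i1 0.84, Il15 0.21, Ccl5 0.19, Cd44 0.17, Cxcl16 0.14 and Batf3 0.14, all below 0 in the members as a whole. With HTODemux they were Ccr7 0.35, Cd74 0.28, Ccl5 0.22, Apol7c 0.17, Clec9a 0.11, Il4i1 0.0801 and Cd3e −0.28. Outside cluster 5 they were Apol7c 0.24 and Ccr7 0.0678, with at least 10 members per mouse Cd3e −0.10 and Cd8a −0.11, and under the stricter rule Cd8a −0.20. Apol7c, at −0.01, was 0.0031 with upper-quartile factors, 0.0268 with library totals and 0.0153 with DESeq2. Over single mice left out, the ranges that cross 0 were −0.49 to 1.05 for Apol7c, −0.996 to 0.228 for Ccl5, −0.46 to 0.22 for Ccr7, −1.14 to 1.10 for Cd274, −0.0667 to 0.24 for Cd3e, −0.60 to 0.80 for Cd40, −0.88 to 0.0266 for Cd44, −0.32 to 0.0137 for Cd74, −0.50 to 0.90 for Cd86, −0.76 to 0.15 for Il15, −0.57 to 0.0468 for Il4i1, −0.65 to 0.75 for Itgax and −0.24 to 2.86 for Lyz2.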
